A study of Mus musculus with 13 samples.

Results

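The genes that encode the proteins of the cytosolic ribosome, together with their processed pseudogenes, were examined in the aortas of 13 ApoE-/- mice. Members were chosen by gene name (names that start with Rpl or Rps and a digit, with Rpsa, or with Rplp0 to Rplp2, without the Rps6k kinases), and the name rule took 391 of 54532 genes in the count table. Of these, 94 had the biotype protein_coding and 297 a pseudogene biotype, namely 288 processed pseudogenes and 9 transcribed processed pseudogenes. The group had been selected with a measured value in view, since the pseudogene Rps15a-ps6 was higher in aortas labelled Ad-FAM3A. The difference between the virus groups is therefore given as a description, and it supports nothing by itself.

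Every mouse carried the ApoE knockout and received angiotensin II (AngII) from a subcutaneous pump at 1000 ng/kg/min for 28 days from the age of 10 weeks, a model of abdominal aortic aneurysm. The 6 Ad-sham mice were injected through the tail vein with an empty adenovirus, and the 7 Ad-FAM3A mice with an adenovirus that carries mouse Fam3a behind the EF1A promoter, 5 times each. Each library was made from aortic tissue, and the sources do not state whether all of an aorta went into it. In such tissue, fewer cells of a type and less RNA per cell cannot be told apart. The labels do not mention repeated libraries of 1 mouse or separate batches. The Fam3a transcript itself did not separate the groups, with a log2 fold change of -0.03 ± 0.16 (SE) in aortas labelled Ad-FAM3A, and the labels were therefore not checked by their target. Total counts ranged from 14481179 to 19797407 per aorta, and 3 counts, the limit that a count of 0 allows for counting error alone, equalled 0.140 to 0.221 CPM (counts scaled to library size, with sizes adjusted by the trimmed mean of M values, TMM).

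The cytosolic ribosome joins a small subunit, built from the Rps proteins, and a large subunit, built from the Rpl proteins, around ribosomal RNA. The acidic proteins Rplp0, Rplp1 and Rplp2 form the stalk that receives elongation factors. Messages of these genes begin with a pyrimidine tract at the cap (a TOP motif), through which mTOR signaling and Larp1 set their translation. The messages are short and abundant and have been copied back into the genome many times, leaving processed pseudogenes without introns that still resemble the parent message. The biotype split was not a split by name. There were 8 coding members with a pseudogene name, such as Rps12-ps3 and Rpl10-ps3, and 7 pseudogene members without one, such as Rps4l. Rps19bp1 and Rpl7l1 are taken by the name rule although neither is a subunit of the mature ribosome, and Fau and Rack1, whose products belong to the ribosome, are missed by it. A further 101 pseudogenes described as ribosomal protein pseudogenes carry other names and were left out.

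Some coding members show the tract at their annotated start, and more of them do not. The windows below, credited to RefSeq on GRCm38.p6, run from 20 bases before to 20 bases after the annotated start. Capitals mark a C followed by at least 4 pyrimidines that begins within 5 bases of that start. Rps15a, Rps6, Rpl38, Rps27, Rplp2 and Rps10 are shown because the values below turn on them or on their pseudogenes, and Rpl22 is shown as a coding member without the tract at its annotated start.
Rps15a (chr7:118116128-118116167, minus strand): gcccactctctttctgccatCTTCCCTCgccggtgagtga
Rps6 (chr4:86857348-86857387, minus strand): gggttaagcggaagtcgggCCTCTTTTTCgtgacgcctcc
Rpl38 (chr11:114668560-114668599, plus strand): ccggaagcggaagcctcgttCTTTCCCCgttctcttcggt
Rps27 (chr3:90213629-90213668, minus strand): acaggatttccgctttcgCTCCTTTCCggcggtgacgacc
Rplp2 (chr7:141447631-141447670, plus strand): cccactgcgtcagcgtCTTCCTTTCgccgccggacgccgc
Rps10 (chr17:27635225-27635264, minus strand): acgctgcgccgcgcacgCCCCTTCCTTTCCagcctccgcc
Rpl22 (chr4:152325706-152325745, plus strand): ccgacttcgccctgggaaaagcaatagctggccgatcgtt
Of the 66 coding members with a promoter in the RefSeq table, 29 (43.9%) had such a tract, against 18.5% of all 27025 promoters, each a window of 250 bases before and 50 bases after the start. The letters CCGGAAG, a core bound by ETS factors, were found on either strand in 25 of the 66 (37.9%), against 9.12% of all promoters. AAGATGGC, a YY1 motif, was found on either strand in 5 (7.58%), against 2.88% of all promoters. These matches describe the letters in the windows and not binding.

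Some processed pseudogenes differ from their parents by few letters. Rps15a-ps6 (ENSMUSG00000083022, GRCm38 chr11:6172644-6173036, minus strand) is as long as the coding sequence of Rps15a with its stop codon, and differed from it at 5 of 393 bases, without a gap. Its first 300 bases are printed above the matching part of Rps15a, with the 4 differing bases of this stretch in capitals.
Rps15a-ps6: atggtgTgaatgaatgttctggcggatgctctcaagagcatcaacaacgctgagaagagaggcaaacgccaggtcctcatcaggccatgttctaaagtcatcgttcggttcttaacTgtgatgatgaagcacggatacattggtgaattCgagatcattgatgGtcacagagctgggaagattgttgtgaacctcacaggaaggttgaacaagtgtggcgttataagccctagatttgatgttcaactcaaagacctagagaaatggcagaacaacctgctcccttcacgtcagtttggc
Rps15a: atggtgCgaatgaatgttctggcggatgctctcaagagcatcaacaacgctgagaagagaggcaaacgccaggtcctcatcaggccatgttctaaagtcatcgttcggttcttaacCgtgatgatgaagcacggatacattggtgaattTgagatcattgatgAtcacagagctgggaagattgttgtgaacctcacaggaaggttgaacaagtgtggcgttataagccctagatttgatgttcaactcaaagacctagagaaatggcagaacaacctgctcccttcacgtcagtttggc
Rpl38-ps2 (chr6:140746960-140747172, minus strand) is the extreme case, since all of its 213 bases equal the coding sequence of Rpl38.
Rpl38-ps2: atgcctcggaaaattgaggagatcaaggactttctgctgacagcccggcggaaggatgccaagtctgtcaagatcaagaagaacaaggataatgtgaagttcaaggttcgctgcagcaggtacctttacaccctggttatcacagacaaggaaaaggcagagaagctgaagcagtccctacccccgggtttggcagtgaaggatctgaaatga
Both sequences come from GENCODE M21 transcripts on GRCm38. The share of 100-base words that a transcript has in common with another gene was used to describe how far reads could be told apart. It was 16.0% for Rps15a-ps6 and 100% for Rpl38-ps2. Reads are 150 bases long, so a read may still hold a differing base where a 100-base word does not.

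Of the 94 coding members, 91 had at least 1 count and 86 passed the filter on low counts. Rpl10l, Rpl36-ps4 and Rpl13a-ps1 had 0 counts in all 13 aortas, and Rpl3l, Rpl39l, Rpl36al, Rpl36a-ps1 and Rpl9-ps1 had between 2 and 74 counts over all aortas. Among the 297 pseudogene members, 121 had 0 counts in every aorta, 104 had a count but did not pass the filter, and 72 passed it. The members with more counts were those most like their parents. Median identity to the parent transcript was 99.3% for the 72 pseudogenes that passed, 96.7% for the 104 that did not, and 91.4% for the 120 of the pseudogenes at 0 whose parent could be aligned. Median shared 100-base words were 69.0%, 12.9% and 0% in the same order. How the authors treated reads that map to several genes is not given in the sources used here, and levels of near-identical members are uncertain for that reason.

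Per length, the coding members differed by a wide margin. The authors' group means in FPKM, which scales reads by gene length and library depth, averaged over the 2 groups, ran from 0.740 to 1490 for the 86 members that passed, with a median of 126. The 5 highest were Rplp1, a stalk protein, at 1349 FPKM in Ad-sham and 1631 in Ad-FAM3A, Rps3a1 at 580 and 733, Rplp0 at 410 and 512, Rps15 at 438 and 431, and Rps14 at 343 and 479. The 5 lowest among those that passed were Rps10, Rpl24, Rpl27-ps3, Rpl13a and Rpl10-ps3, between 0.740 and 9.25 FPKM. For 3 of these 5, another annotated gene covers most of the exons on the same strand. RPS10-NUDT3 covers 91.6% of the Rps10 transcript, Gm28037 71.5% of Rpl24 and Gm45713 59.3% of Rpl13a, and each of the covering genes had 0 counts in every aorta. How reads over shared exons were counted is not given in the sources used here, and the part of this overlap in the low values was not tested. Rps10-ps2, a pseudogene of Rps10 with 99.0% identity, stood at 91.5 FPKM in Ad-sham, while Rps10 stood at 0.657 FPKM.

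The paralogs of the main copies ranged from traces to levels near the main copy. Rpl3l, the striated muscle copy of Rpl3, had 71 counts in all 13 aortas together, against 89380 for Rpl3. Rpl39l, a copy best known from testis, had 15 counts, against 64218 for Rpl39. Per length, by the authors' Ad-sham means, Rpl22l1 stood at 13.1 FPKM and Rpl22 at 57.8 FPKM. Rps27l stood at 98.3 FPKM and Rps27 at 202 FPKM. Rps27rt stood at 161 FPKM in Ad-sham and at 348 FPKM in Ad-FAM3A, where Rps27 had 347 FPKM. The log2 fold change of Rps27rt was 1.10 ± 0.47, which was 0.67 without Ad-FAM3A6 and 0.29 without Ad-FAM3A2 and Ad-FAM3A6. Rps27rt, which shares 89.5% of its 100-base words with other genes, cannot be separated from Rps27 with certainty.

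The coding members together took 1.63% to 2.60% of all counts in the 6 Ad-sham aortas, with a median of 1.88%. In the 7 aortas labelled Ad-FAM3A they took 1.59% to 4.73%, with a median of 2.16%. The shares were 1.63%, 2.60%, 1.87%, 2.23%, 1.83% and 1.89% in Ad-sham1 to Ad-sham6, and 2.06%, 4.73%, 1.59%, 2.25%, 1.80%, 3.15% and 2.16% in Ad-FAM3A1 to Ad-FAM3A7. The groups overlapped, and Ad-FAM3A2 and Ad-FAM3A6 alone lay above the highest Ad-sham aorta. Mean shares were 2.01 ± 0.349% (SD, n = 6) and 2.53 ± 1.09% (SD, n = 7). Without Ad-FAM3A2 and Ad-FAM3A6 the mean of the other 5 aortas labelled Ad-FAM3A was 1.97 ± 0.271%, slightly below that of Ad-sham.

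**Figure D1:**
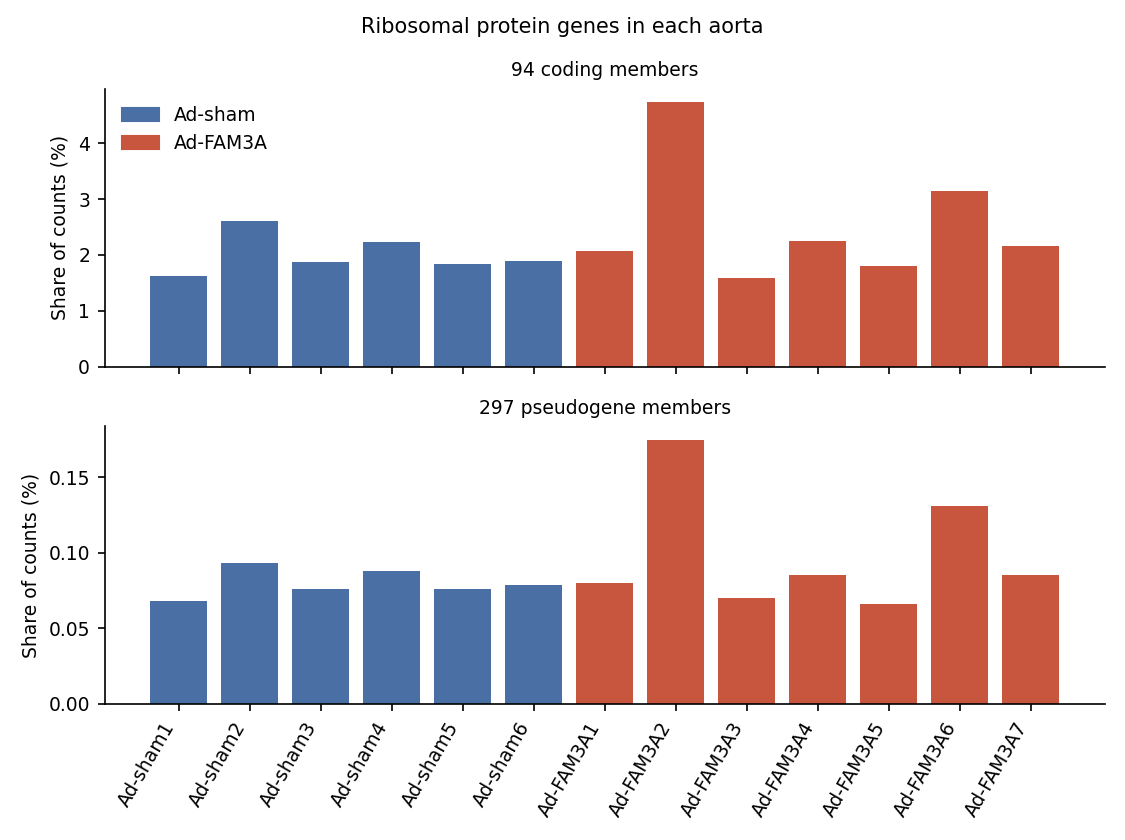
Share of all counts (%, vertical axis) taken by the 94 coding members (top) and the 297 pseudogene members (bottom) in each of the 13 aortas, 1 bar per aorta, Ad-sham in blue and Ad-FAM3A in red. Ad-FAM3A2 stands at 4.73% and Ad-FAM3A6 at 3.15% for the coding members, and the other 11 aortas lie between 1.59% and 2.60%.

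The pseudogene members took 0.0681% to 0.0931% of counts in Ad-sham and 0.0662% to 0.175% in Ad-FAM3A. They followed the coding members closely from aorta to aorta. For every 100 counts on coding members there were 3.57 to 4.18 counts on pseudogene members in Ad-sham and 3.69 to 4.39 in Ad-FAM3A. Across the 13 aortas the log2 shares of both classes correlated with Pearson's r = 0.98 (permutation p = 1e-05, the smallest these permutations can give; adjusted p = 9e-05 over 9 relations) and Spearman's rho = 0.97 (permutation p = 1e-05). The relation was also seen within Ad-sham (r = 0.98, exact permutation p = 0.00139, n = 6) and within Ad-FAM3A (r = 0.99, exact permutation p = 0.00139, n = 7). It was r = 0.94 without Ad-FAM3A2 and Ad-FAM3A6, the 2 aortas farthest from the median. Both shares come from the same library and the same total, and reads of a parent may be counted on a pseudogene.

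No member separated the virus groups after correction for all genes. edgeR's quasi-likelihood test called 0 of 15811 genes at an adjusted p under 0.05 (0%), and the smallest adjusted p among the members was 0.810. DESeq2 called 3 genes, none of them a member. At an unadjusted p under 0.05 the coding members were higher in Ad-FAM3A in 8 of 86 and lower in 0 of 86, and the pseudogene members were higher in 8 and lower in 2 of 72. Over all genes, 2.98% were higher and 2.93% lower by the same measure, 934 genes in all. Since the members had been chosen with this contrast known, nothing is read from these counts. Fold changes were positive in 85 of the 86 coding members and in 60 of the 72 pseudogenes, with a median log2 fold change of 0.28 and 0.40, against 0.00 over all genes tested.

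The shift was much smaller or turned without 2 aortas. Without Ad-FAM3A2, 52 of 86 coding members were higher in Ad-FAM3A and the median log2 fold change was 0.04. Without both Ad-FAM3A2 and Ad-FAM3A6, which was tried after the data had been seen, 29 of 86 were higher, the median was -0.08 for coding members and 0.03 for pseudogenes, and 6 members had an unadjusted p under 0.05 instead of 18. The 33 small subunit members had a median log2 fold change of 0.32 and the 47 large subunit members one of 0.25, and the difference between the subunits was not tested.

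Coding members with the smallest p included Rps27a, which is made as a fusion with ubiquitin. Its CPM ran from 65.4 to 115 (median 82.0) in Ad-sham and from 90.7 to 513 (median 180) in Ad-FAM3A, a log2 fold change of 1.26 ± 0.38 (SE). The groups overlapped, with Ad-FAM3A2 far above the rest, and without Ad-FAM3A2 and Ad-FAM3A6 the log2 fold change was 0.78. Rps12-ps3, a copy of Rps12 whose every 100-base word is shared with another gene, ran from 21.3 to 57.5 CPM (median 44.9) in Ad-sham and from 31.0 to 190 CPM (median 107) in Ad-FAM3A, a log2 fold change of 1.33 ± 0.39. Rpl30, a large subunit protein, had a log2 fold change of 0.72 ± 0.28, which was 0.35 without the same 2 aortas. Rps15, a small subunit protein, was the only coding member with a negative value, at -0.03 ± 0.38.

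Other members with a role of their own gave smaller values. Rps6, the small subunit protein phosphorylated by S6 kinase downstream of mTOR, ran from 289 to 471 CPM in Ad-sham and from 339 to 775 CPM in Ad-FAM3A, with a log2 fold change of 0.51 ± 0.22 that was 0.22 without the 2 aortas. Rpsa, a small subunit protein also known as the laminin receptor, stood at 502 to 807 CPM and 475 to 1232 CPM, with 0.25 ± 0.25. The stalk proteins Rplp0, Rplp1 and Rplp2 had log2 fold changes of 0.30 ± 0.23, 0.26 ± 0.28 and 0.07 ± 0.33. All of these groups overlapped, and without Ad-FAM3A2 and Ad-FAM3A6 the values of Rpsa, Rplp0, Rplp1 and Rplp2 were -0.11, -0.02, -0.12 and -0.35.

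Rps15a-ps6, the pseudogene named in the selection, was a low gene in all 13 aortas. Its counts were 10, 16, 19, 11, 12 and 13 in Ad-sham1 to Ad-sham6 and 14, 39, 23, 40, 29, 56 and 30 in Ad-FAM3A1 to Ad-FAM3A7. In CPM it ran from 0.561 to 1.20 (median 0.771) in Ad-sham and from 0.839 to 3.42 (median 2.13) in Ad-FAM3A. The groups overlapped through Ad-FAM3A1, and the other 6 aortas labelled Ad-FAM3A lay above every Ad-sham aorta. The log2 fold change was 1.34 ± 0.33 (SE), with an adjusted p of 0.810 from edgeR over all genes. Unlike most coding members, it was not highest in Ad-FAM3A2, and its log2 fold change was 1.09 without Ad-FAM3A2 and Ad-FAM3A6.

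Its parent Rps15a, a small subunit protein (chr7:118104372-118116188, minus strand), was far more abundant, with 220 ± 45.8 CPM in Ad-sham (SD, n = 6) and 331 ± 141 CPM in Ad-FAM3A (SD, n = 7). It ran from 162 to 262 CPM and from 215 to 541 CPM, and its log2 fold change of 0.59 ± 0.26 was 0.18 without the 2 aortas. Rps15a-ps6 amounted to 0.395 ± 0.179% of Rps15a in Ad-sham and to 0.667 ± 0.249% in Ad-FAM3A, and the ratios overlapped between the groups, from 0.265% to 0.740% and from 0.390% to 1.14%. Of the 8 Rps15a pseudogenes in the table, Rps15a-ps1 and Rps15a-ps8 had 0 counts and Rps15a-ps2 had 1. Rps15a-ps7 ran from 1.59 to 2.44 CPM in Ad-sham and from 1.69 to 5.35 CPM in Ad-FAM3A, with a log2 fold change of 0.63 ± 0.32, and Rps15a-ps4 had one of -0.18 ± 0.37. Rps15a-ps3, Rps15a-ps4 and Rps15a-ps5 stood at 0.360 ± 0.161, 1.14 ± 0.514 and 0.409 ± 0.168 CPM in Ad-sham. As a share of Rps15a, Rps15a-ps7, Rps15a-ps4, Rps15a-ps5 and Rps15a-ps3 had 0.918 ± 0.226%, 0.524 ± 0.199%, 0.199 ± 0.103% and 0.176 ± 0.0955% in Ad-sham, and 0.900 ± 0.159%, 0.336 ± 0.186%, 0.116 ± 0.0974% and 0.252 ± 0.0573% in Ad-FAM3A. Differences between the pseudogenes were not tested, and nothing is read from their order in either group. Rps15a-ps6 had been selected for its level in Ad-FAM3A, and Rps15a-ps3 and Rps15a-ps5 stood at only 0.360 and 0.409 CPM in Ad-sham.

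**Figure D2:**
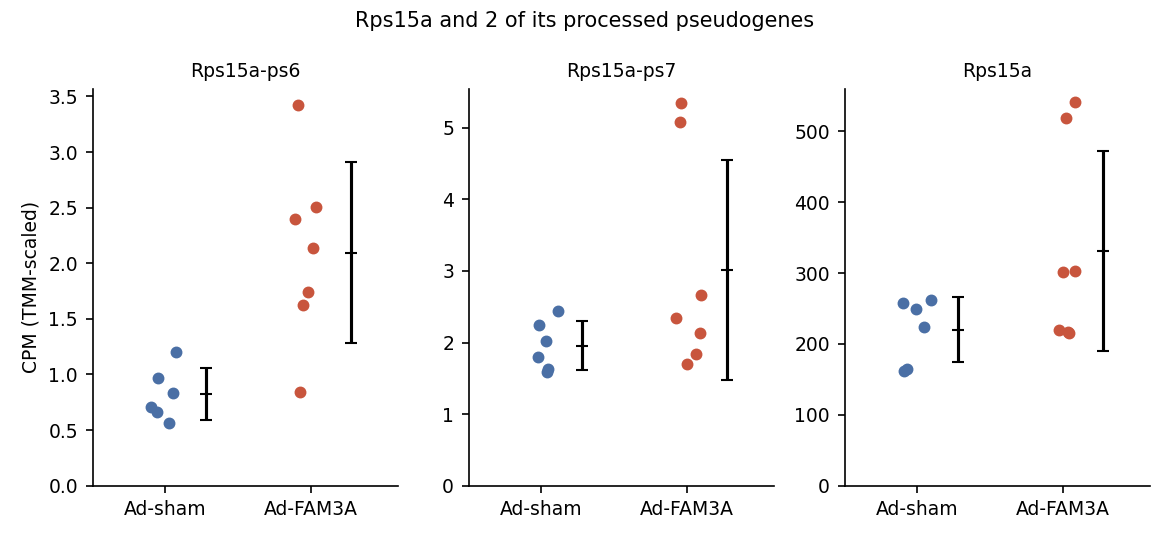
CPM (vertical axes from 0, TMM-scaled) of Rps15a-ps6, Rps15a-ps7 and Rps15a in 6 Ad-sham (blue) and 7 Ad-FAM3A (red) aortas, 1 point per aorta, with the mean and SD of each group in black. For Rps15a-ps6, 6 of the 7 Ad-FAM3A aortas lie above 1.20 CPM, the highest Ad-sham aorta. That gene was selected for being higher in Ad-FAM3A, so its count is not compared with those of the others. For Rps15a, 4 of 7 lie above 262 CPM, and for Rps15a-ps7, 3 of 7 lie above 2.44 CPM.

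A pair of pseudogenes had a negative fold change at an unadjusted p under 0.05. Rpl30-ps10 ran from 3.91 to 20.7 CPM (median 12.2) in Ad-sham and from 0.368 to 9.35 CPM (median 3.75) in Ad-FAM3A, a log2 fold change of -1.76 ± 0.57, while its parent Rpl30 had a positive one. Its transcript shares 91.9% of its 100-base words with other genes. Rps4l, a pseudogene in this table with 79.9% identity to Rps4x and 2.03% of words shared, ran from 16.1 to 25.7 CPM in Ad-sham and from 11.3 to 20.2 CPM in Ad-FAM3A, with -0.40 ± 0.17, and kept a negative value of -0.43 without the 2 high aortas. Rpl10-ps1, which shares every 100-base word with other genes, had a positive log2 fold change of 1.10 ± 0.39 that was 0.66 without the 2 high aortas, and that of Rpl26-ps6, at -0.31 ± 0.36, was smaller than its error.

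The most abundant pseudogenes were counted at levels near those of some coding genes. Rpl17-ps10 had 123 ± 18.9 CPM in Ad-sham (SD, n = 6), and Rpl17-ps3 had 80.0 ± 24.7 CPM. The 10 highest by mean CPM were completed by Rps10-ps2, Rpl14-ps1, Rpl21-ps15, Rpsa-ps10, Rps16-ps2, Rpl23a-ps3, Rpl3-ps1 and Rps6-ps4, and all 10 had an identity of 98.9% or more to their parents. Rps16-ps2 and Rps6-ps4 shared every 100-base word with other genes, as did 13 of the 72 pseudogenes that passed the filter. The median pseudogene stood at 1.43% of its parent's CPM, and 14 of 72 were above 10%. Rps10-ps1 and Rps10-ps2 were above their parent in every aorta, while Rpl21-ps15 ran from 49.8% to 303% of Rpl21 and was below it in 6 of 13 aortas. Rpl38-ps2, identical to the coding sequence of Rpl38, was counted at 11.7% to 38.5% of Rpl38.

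The aortas differed more than the groups did, and the coding members moved together. Of the 86 coding members, 81 were highest in Ad-FAM3A2. In that aorta all 86 lay above their own median over the 13 aortas, by 0.65 to 2.48 on the log2 scale with a median of 1.28, and 68 lay more than 1 above it. The medians were 0.44 in Ad-FAM3A6, where 72 of 86 were above, and 0.38 in Ad-sham2, where 68 were above. They were -0.33 in Ad-FAM3A3, where 2 of 86 were above, and -0.23 in Ad-sham1, where 10 were above. The small and the large subunit members had medians of 1.22 and 1.32 in Ad-FAM3A2 and of 0.52 and 0.34 in Ad-FAM3A6. Of the 72 pseudogenes, 39 were highest in Ad-FAM3A2 and 16 in Ad-FAM3A6.

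**Figure D3:**
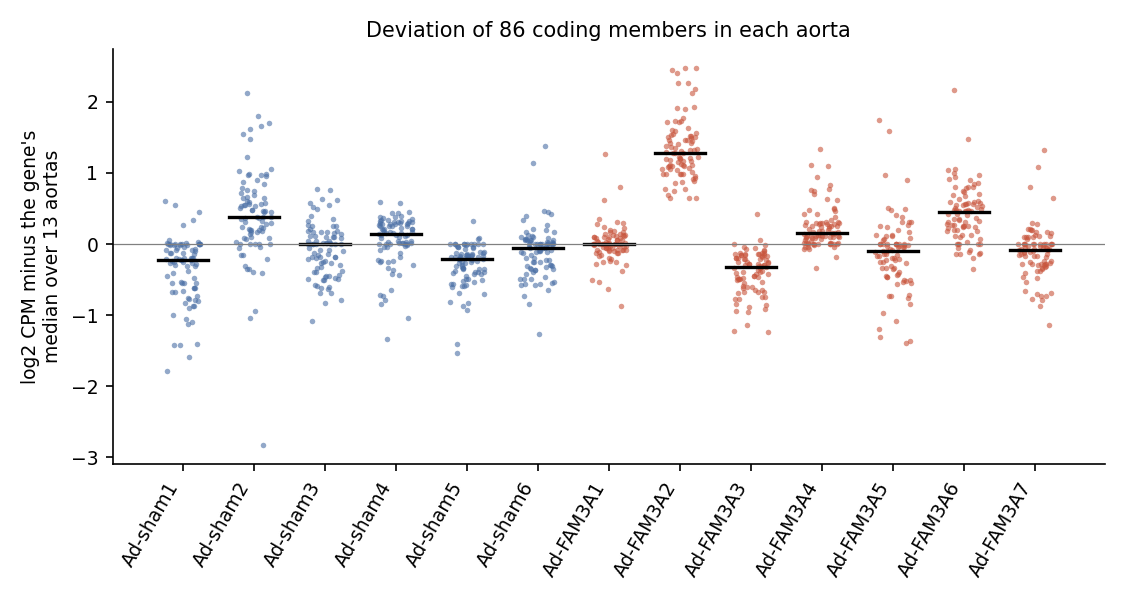
Deviation of each of the 86 coding members (1 point per gene) from its own median over the 13 aortas, on the log2 CPM scale (vertical axis), for each aorta (horizontal axis), Ad-sham in blue and Ad-FAM3A in red, with the median of the 86 as a black bar. All points of Ad-FAM3A2 lie above 0, with a median of 1.28, and the medians of the other aortas lie between -0.33 and 0.44.

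In Ad-FAM3A2 the members with shorter coding sequences lay further above their medians. The 11 members with a coding length up to 300 bases had a median deviation of 1.73, the 50 members of 300 to 600 bases 1.32, the 22 members of 600 to 1200 bases 0.98, and the 2 members above 1200 bases, Rpl3 and Rpl4, 0.70. Rpl41, the shortest at 75 coding bases, was 2.26 above its median, Rpl38 2.40, Rps29 2.26 and Rps28 2.19, whereas Rpl4, the longest at 1257 bases, was 0.65 above. Rpl7a, with 798 coding bases, and Rps27a, with 468, were at 2.48 and 2.45, and Rpl10-ps3, Rpl24 and Rpl21, with 642, 471 and 480, were at 2.47, 2.12 and 1.91, all above the medians of their length classes. Spearman's rho between coding length and deviation over the 85 members with an annotated length was -0.67 in Ad-FAM3A2, 0.15 in Ad-FAM3A6 and -0.24 in Ad-sham2, given as a description across genes of 1 library.

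Other coding genes showed the same order by length in Ad-FAM3A2, at a lower level. Their median deviation was 0.85 for 283 genes up to 300 coding bases, 0.48 for 1445 genes of 300 to 600 bases, 0.15 for 4062 of 600 to 1200 bases, -0.03 for 5181 of 1200 to 2400 bases and -0.36 for 3035 longer ones, with a Spearman's rho of -0.49 over 14006 genes. The members lay above other genes of their length class in Ad-FAM3A2 by these medians, and also in Ad-FAM3A6, where the members of 300 to 600 bases stood at 0.46 and the other genes at -0.13. The same held in Ad-sham2, where the members stood at 0.66, 0.45 and 0.28 in the first 3 classes and the other genes at 0.28, 0.20 and 0.05. The part of message length in the share of Ad-FAM3A2 was not tested.

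**Figure D4:**
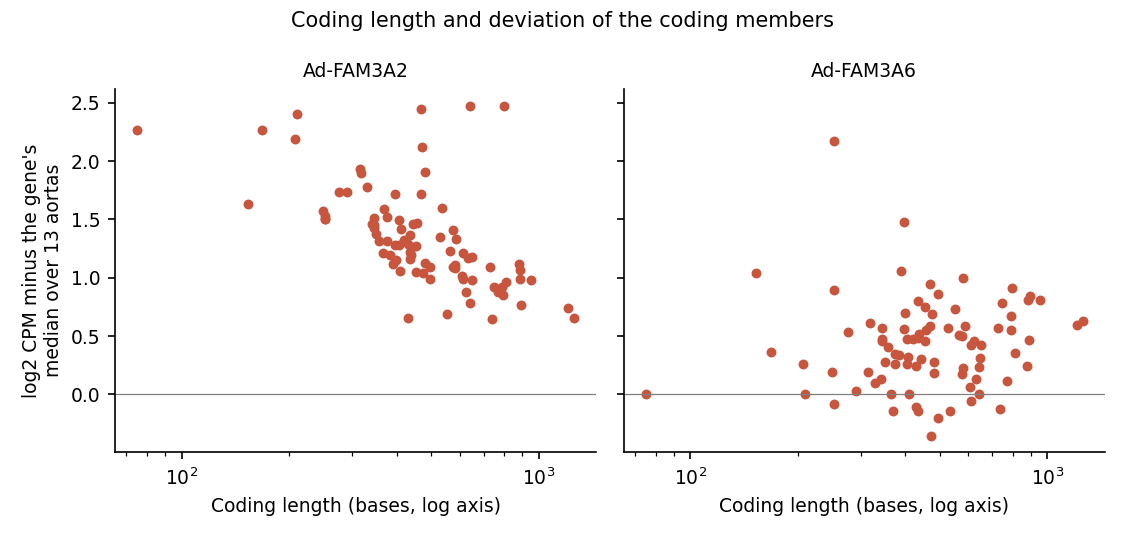
Coding length (bases, log axis) against the deviation of each coding member from its median over the 13 aortas (log2 CPM, vertical axis) in Ad-FAM3A2 (left) and Ad-FAM3A6 (right), 1 point per gene for the 85 members with an annotated coding length. The points fall with length in Ad-FAM3A2, with a Spearman's rho of -0.67, and show no such slope in Ad-FAM3A6, with a rho of 0.15.

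Some coding members left the common pattern. Over 13 aortas the median Pearson's r between pairs of coding members was 0.72, and without Ad-FAM3A2 and Ad-FAM3A6 it was 0.42. Rpl10-ps3, Rps10, Rpl24 and Rpl27-ps3 had the lowest median r with the rest, from 0.24 to 0.44, and all 4 were among the 5 lowest per length. The 5 largest SDs of log2 CPM within groups were those of Rpl10-ps3 (1.31), Rpl7a (1.25), Rps29 (1.13), Rps28 (1.12) and Rpl21 (1.07), against a median of 0.50 over the 86. Rps29, a small subunit protein, ran from 34.7 to 306 CPM within Ad-sham alone, with Ad-sham2 the highest.

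Other gene lists tied to translation or ribosome production moved with the coding members to different degrees. The translation list holds 19 genes known for TOP messages, mostly elongation and initiation factors. It also holds genes such as Vim, Nap1l1 and Hnrnpa1, which are not translation factors. Its mean log2 CPM correlated with the coding share across the 13 aortas at r = 0.91 (permutation p = 0.00014, adjusted p = 0.00063 over 9 relations) and rho = 0.84 (permutation p = 0.00072). Within Ad-FAM3A r was 0.97 (exact permutation p = 0.00119, n = 7), and within Ad-sham it was 0.71 (exact permutation p = 0.0889, n = 6). Without Ad-FAM3A2 and Ad-FAM3A6, the 2 farthest aortas, r was 0.67 (permutation p = 0.0244, adjusted p = 0.0928). In the comparison of groups 0 of the 19 passed the adjusted test, 18 had positive fold changes with a median of 0.13, and Nap1l1, a histone chaperone, was the only one with an unadjusted p under 0.05. Of the 19, 10 were highest in Ad-FAM3A2 and 6 in Ad-FAM3A6, and their fold changes without these aortas are not given here.

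**Figure D5:**
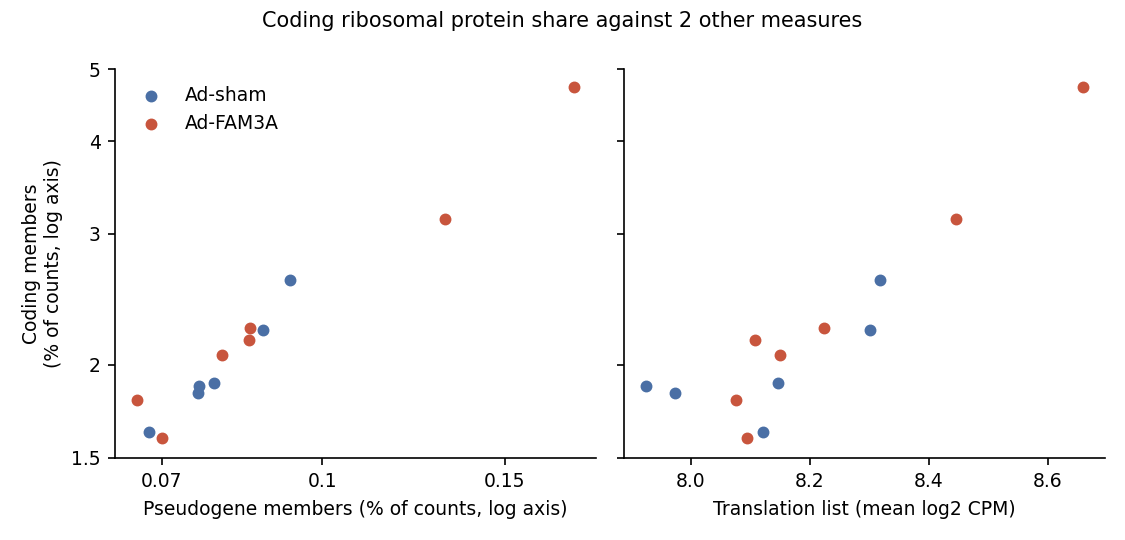
Share of counts on the 94 coding members (%, log axis, vertical) against the share on the 297 pseudogene members (%, log axis, left) and against the mean log2 CPM of the 19 genes of the translation list (right), 1 point per aorta, Ad-sham in blue and Ad-FAM3A in red. Pearson's r on log2 shares is 0.98 on the left and 0.91 on the right, and Ad-FAM3A2 and Ad-FAM3A6 are the 2 highest points of both panels.

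The 36 genes of ribosome biogenesis, which make and process ribosomal RNA in the nucleolus, correlated with the coding share at r = 0.69 (permutation p = 0.00721, adjusted p = 0.0216) and rho = 0.80 (permutation p = 0.00145). The value was 0.76 within Ad-sham (exact permutation p = 0.0847, n = 6) and 0.69 within Ad-FAM3A (exact permutation p = 0.0726, n = 7), and 0.63 without Ad-sham2 and Ad-FAM3A6, the 2 farthest aortas (permutation p = 0.0564). By ranks, rho was 0.49 within Ad-sham (exact permutation p = 0.356, n = 6), 0.89 within Ad-FAM3A (exact permutation p = 0.0123, n = 7) and 0.71 without the 2 farthest aortas (permutation p = 0.018), so that the 2 measures differed in which of these passed. None of the 36 passed the adjusted test between groups, and 8 of them were highest in Ad-FAM3A2 and 15 in Ad-FAM3A6. Positive fold changes were found in 28, and 4 had an unadjusted p under 0.05 and a positive value, namely Gnl3, Nop58, Nop56 and Heatr1, at log2 fold changes of 0.43 ± 0.14, 0.43 ± 0.16, 0.39 ± 0.17 and 0.43 ± 0.20, where 2.98% of all genes were higher by that measure.

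Regulators of ribosomal protein synthesis and mitochondrial ribosomal proteins had mostly negative fold changes, and none passed the adjusted test. Of the 16 genes of mTOR and Myc control, 12 had negative fold changes with a median of -0.13, and 2 were lower at an unadjusted p under 0.05. Mtor, the kinase of the pathway, stood at 123 ± 40.7 CPM in Ad-sham and 81.6 ± 8.44 CPM in Ad-FAM3A, a log2 fold change of -0.59 ± 0.18, and Deptor, an inhibitor of mTOR, had -0.76 ± 0.29. Of the 77 mitochondrial ribosomal protein genes tested, 69 had negative fold changes with a median of -0.20, 3 were lower at an unadjusted p under 0.05, and 43 were highest in Ad-FAM3A2, where their summed level of 4070 CPM was also the highest of the 13 aortas. By the same measure 2.93% of all genes were lower. The summed mitochondrial ribosomal level was 2963 to 4070 CPM in Ad-sham1, Ad-sham2, Ad-sham3 and Ad-FAM3A2 and 1735 to 2409 CPM in the other 9 aortas. The summed level of 5 brown fat markers was 2123 to 3610 CPM in the same 4 aortas and 532 to 1198 CPM in the others. All 5 brown fat and all 10 adipocyte markers had negative fold changes, 2 and 4 of them at an unadjusted p under 0.05, and their part in the mitochondrial ribosomal values was not tested. Among the genes missed by the name rule, Fau had a log2 fold change of 0.36 ± 0.26 and Rack1 of 0.31 ± 0.21, and neither passed the adjusted test.

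Cell type markers that moved with these aortas are given for comparison. The fibroblast markers correlated with the coding share at r = -0.67 (permutation p = 0.0115, adjusted p = 0.026, rho = -0.59 with permutation p = 0.0379), with -0.84 within Ad-FAM3A (exact permutation p = 0.0206, n = 7) and -0.19 within Ad-sham (exact permutation p = 0.711, n = 6). The value was -0.61 without Ad-sham5 and Ad-FAM3A6, the 2 farthest aortas (permutation p = 0.0309, adjusted p = 0.0928), and -0.34 without Ad-FAM3A2 and Ad-FAM3A6 (permutation p = 0.306), so that the relation rested on those aortas. The relations with the share of mitochondrial-genome counts (r = -0.51), B cell markers (0.27), adipocyte markers (0.19), total counts (0.13) and smooth muscle markers (0.05) had permutation p-values from 0.0696 to 0.88 (adjusted p from 0.125 to 0.88). Their rho was -0.45, 0.34, 0.22, 0.42 and 0.15 in the same order, with permutation p-values from 0.124 to 0.621. Smooth muscle markers gave r = 0.83 within Ad-sham (exact permutation p = 0.0389, adjusted p = 0.175, n = 6) and -0.24 within Ad-FAM3A (exact permutation p = 0.581, n = 7). B cell markers gave 0.63 without Ad-FAM3A2 (permutation p = 0.0299, adjusted p = 0.0539) and -0.0078 without Ad-FAM3A6. The mitochondrial share gave -0.65 without Ad-FAM3A6 (permutation p = 0.00923, adjusted p = 0.0277) and -0.26 without Ad-FAM3A2. In Ad-FAM3A6 all 8 B cell, all 7 T cell and all 6 cell division markers were at their highest. The summed level of the 8 B cell markers was 15907 CPM there and 5033 CPM in Ad-FAM3A7, against 55.5 to 357 CPM in the other 11 aortas. In Ad-FAM3A2, 4 of 7 macrophage markers were at their highest, with a summed level of 3696 CPM against 638 to 2283 CPM in the other aortas. There the B cell markers summed to 97.4 CPM and the fibroblast markers to 5435 CPM, against 3441 to 17583 CPM over all aortas. All 10 smooth muscle markers were detected and passed the filter, with a summed level of 2559 CPM in Ad-FAM3A6 and 3327 to 20120 CPM in the other aortas. The part of these cell types in the ribosomal protein values was not tested.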

How the data were processed

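RNA was measured in tissue of 13 aortas, 6 Ad-sham and 7 Ad-FAM3A, 1 library each, with the groups taken from the sample titles. The authors aligned 150 bp reads to GRCm38 with Hisat2 2.0.5 and deposited whole-number counts per gene from FeatureCounts 1.5.0-p3, without normalization. They also deposited 1 mean FPKM per group, which has no replicate spread. Annotation release, strand setting and treatment of multi-mapping reads are not given in the sources used here. The extraction and library kits differ between the labels and the methods of the study. Of the 391 members, all were found in GENCODE M21, 384 with the same start and end as in the table.

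Counts were scaled by TMM, filtered with filterByExpr and compared with edgeR 4.0.16 (quasi-likelihood test, R 4.3.3) with Benjamini-Hochberg adjustment over all 15811 genes, and with DESeq2 1.42.0 as an alternative. Log2 CPM used a pseudocount of 0.5. The standard error of a log2 fold change was taken from its size and the F statistic. Correlations were tested by two-sided permutation (100000 resamples, or exact within groups). Shared words and identities were computed from GENCODE M21 transcripts, the shortest of the best-ranked ones per gene, with Biopython 1.88. On simulated counts for Ad-FAM3A against Ad-sham over 15811 genes with 200 changed by a log2 fold of 2, edgeR recovered 76.5% with 2.55% false calls, and DESeq2 87.5% with 17.8%. The members' fitted log2 fold changes ran from -1.76 to 1.34. Changes of that size were not simulated, so these rates do not tell how many of them would be called.

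Nothing states whether the aortas were processed in separate batches, and p-values measure the spread between these aortas. Replicate numbers did not pair the aortas, since the deviations of same-numbered aortas correlated at -0.291 to 0.487. The members and the gene lists were chosen with earlier results of these data known. Named members are Rps15a-ps6 and Rps15a, fixed paralog groups and proteins with a role of their own, the 5 highest and 5 lowest coding members by FPKM, the 10 highest pseudogenes by mean CPM, the 3 smallest p-values in each direction and class, and the 5 largest SDs within groups, and a few items that these rules take are not reported here. Members named outside this rule, such as Rpl38, Rpl41 and the other Rps15a pseudogenes, were chosen after their values were seen. Alternatives were other normalizations, filters and tests, a fit blocked by replicate number, and fits that each lacked 1 aorta. Leaving out Ad-FAM3A2 and Ad-FAM3A6 together was added after seeing the data.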

Additional observations from a re-analysis of the deposited data

Results flagged for a closer look

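Among the named members and the summed shares, 104 sets of 6 or 7 aortas were searched for 1 aorta whose gap to its neighbour was large against the range of its group, and 7 were found, where chance gives about 5.2. Ad-FAM3A2 was far above the other Ad-FAM3A aortas for Rpl22 (395 CPM against 144 to 218), Rpl22l1 (64.5 against 19.2 to 30.5), Rplp1 (1829 against 560 to 735) and Rps27l (212 against 63.4 to 83.5). Ad-sham2 was far above the other Ad-sham aortas for Rpl36a (145 CPM against 49.4 to 71.1), and Ad-sham4 for Rps6-ps4 (27.8 against 16.7 to 20.2). Ad-FAM3A7 was far below the others for Rpl26-ps6 (0.232 CPM against 0.861 to 1.10). Ad-FAM3A2 is the aorta with the highest coding share, and no cause was tested.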

How the results depend on the processing

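No member was called in any of the edgeR fits or by DESeq2. The 18 members at an unadjusted p under 0.05 became 28 without a filter on low counts, 6 without Ad-FAM3A2 and Ad-FAM3A6, and 8 to 28 when each aorta was left out in turn. The count was 9 without Ad-sham3, 8 without Ad-sham5, 9 without Ad-FAM3A2, 28 without Ad-FAM3A3 and 8 without Ad-FAM3A6. With the replicate number as a replicate block it was 14, and 1 of 6 aortas correlated best with its own number. The median log2 fold change of coding members ranged from 0.04 to 0.39 and that of pseudogenes from 0.18 to 0.49 when each aorta was left out, and without both high aortas the median log2 fold change of coding members was -0.08 and the median log2 fold change of pseudogene members was 0.0332. The coding ribosomal protein share of counts differed between group means by 0.525 percentage points, by 0.158 without Ad-FAM3A2 and by -0.0377 without both. Correlations with the coding share that no longer had an unadjusted p under 0.05 were, within Ad-sham, the translation list (0.71), biogenesis (0.76) and fibroblast (-0.19), within Ad-FAM3A, biogenesis (0.69), without the 2 farthest aortas, biogenesis (0.63), and without both high aortas, fibroblast (-0.34). By adjusted p the translation list (0.67) and fibroblast (-0.61) were also lost without the 2 farthest aortas, the translation list (0.67) and biogenesis (0.72) without both high aortas, and fibroblast (-0.84) within Ad-FAM3A. Smooth muscle (0.83 within Ad-sham) passed by unadjusted p only there. When each aorta was left out, r ranged from -0.65 to -0.26 for the mitochondrial share, which was -0.65 without Ad-FAM3A6 and -0.61 without Ad-sham5, both newly under 0.05 unadjusted, and from -0.0078 to 0.63 for B cell markers, which was 0.63 without Ad-FAM3A2 and newly under 0.05 unadjusted. The causes were not tested. Depth limits Rps15a-ps6 and the other pseudogenes with few counts.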

Other observations

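Gm5451, a processed pseudogene that the name rule does not take and that was noticed after its values were seen, had a log2 CPM that followed Rps15a-ps6 over the 13 aortas with Pearson's r = 0.95, given as a description. Local alignment matched 1.55% of the Gm5451 transcript to Rps15a-ps6. The share of all genes that follow Rps15a-ps6 as closely is not given here, and no link between the 2 pseudogenes is read from this r.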
